A study of Mus musculus with 6 samples.

Results

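Cholesterol is made in every nucleated cell, and it is also taken up, moved between membranes, stored as ester and passed out again. The genes described here are 31 mouse genes of that cycle. They were given as a list by name, with 18 enzymes of synthesis, 5 genes of sterol sensing and transfer, and 8 genes of uptake, lysosomal export, efflux and storage. Of these, 29 had a probe set annotated with their symbol alone, among 19937 genes in all. Acat2, a thiolase at the entry of the pathway, and Soat1, which esterifies cholesterol for storage, were not analysed here.

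Adipose tissue RNA of 3 wild-type (WT) mice and 3 mice lacking cavin-3 (KO) was hybridised to Affymetrix Mouse Gene 1.0 ST arrays, 1 array per mouse. All mice were 10 weeks old, ate standard chow and had been fasted for 6 hours. In the KO mice a lacZ/neo cassette stands in place of the whole Cavin-3 gene on both alleles, on a C57BL/6 background. The methods name a single ES cell clone for the mice of this site and state that only males were analysed. The labels and methods read here do not name the fat depot.

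Cavin-3 is a coat protein of caveolae, the small cholesterol-rich pits of the plasma membrane that are abundant in fat cells. Adipocytes also hold much of the cholesterol of the body, largely unesterified and at the surface of the lipid droplet. When sterol in the endoplasmic reticulum is low, Scap carries the precursor of the transcription factor SREBP2 (gene Srebf2) to the Golgi, where it is cut and released, and it then switches on the enzymes of synthesis. Insig1 and Insig2 hold Scap back when sterol is plentiful. Oxysterols, which accumulate with cholesterol, activate the nuclear receptor LXR, and LXR turns on the exporters Abca1 and Abcg1 and the ubiquitin ligase Mylip (IDOL).

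The targeted gene, named Cavin3 in the annotation, had log2 signals of 10.05, 10.90 and 10.45 in WT and of 6.79, 6.78 and 7.12 in KO. The KO level was 0.0843-fold the WT level (95% interval 0.0578 to 0.123, adjusted p = 0.0409 by limma). With 1 array left out, its adjusted p was 0.0459 without WT replicate 1 and lay between 0.0722 and 0.509 without any other. Not all arrays followed the statement on sex. WT replicate 2 and KO replicate 3 had log2 signals of 11.15 and 11.34 for Xist, the transcript of the inactive X chromosome, against 3.70 to 6.30 on the other arrays, and of 3.36 and 3.21 for the Y-linked Uty, against 7.89 to 8.14. The main results are given with and without these 2 arrays. The 7 adipocyte markers (Adipoq, Plin1, Fabp4, Lep, Cidec, Pparg, Lpl) had a mean log2 signal of 11.95 to 12.14 on every array. The arrays measure RNA of whole tissue, so fewer cells of a type and less RNA per cell cannot be told apart.

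The stretch just upstream of 6 of these genes is shown to let a reader see what the promoters of the pathway share. The sequences are the 250 bases before the RefSeq start of each gene (GRCm38.p6), read 5′ to 3′ on the strand of the gene. They stand for the first enzyme measured (Hmgcs1), 2 of the 3 enzymes with an unadjusted p under 0.1 (Idi1 and Cyp51), the last step (Dhcr7), the sterol sensor (Insig1) and the efflux pump (Abca1). Capitals mark the core of the sterol regulatory element, CACNCCAC, the CCAAT box, each on either strand, and in Abca1 the DR4 element, a direct repeat of the kind that LXR binds.
Hmgcs1: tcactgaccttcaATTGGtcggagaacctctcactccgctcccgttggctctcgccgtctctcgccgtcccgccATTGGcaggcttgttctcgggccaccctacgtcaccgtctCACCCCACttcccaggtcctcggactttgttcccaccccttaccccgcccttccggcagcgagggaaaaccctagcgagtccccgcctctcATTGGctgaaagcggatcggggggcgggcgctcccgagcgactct
Idi1: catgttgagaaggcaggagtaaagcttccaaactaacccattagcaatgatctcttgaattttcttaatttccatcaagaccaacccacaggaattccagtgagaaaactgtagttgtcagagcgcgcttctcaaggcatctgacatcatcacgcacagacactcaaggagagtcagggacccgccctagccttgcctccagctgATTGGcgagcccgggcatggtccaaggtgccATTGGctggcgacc
Cyp51: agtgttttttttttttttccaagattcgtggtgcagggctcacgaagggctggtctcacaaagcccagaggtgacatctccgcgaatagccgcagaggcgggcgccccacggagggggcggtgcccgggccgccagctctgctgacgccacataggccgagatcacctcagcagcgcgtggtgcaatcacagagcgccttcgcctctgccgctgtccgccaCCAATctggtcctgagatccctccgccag
Dhcr7: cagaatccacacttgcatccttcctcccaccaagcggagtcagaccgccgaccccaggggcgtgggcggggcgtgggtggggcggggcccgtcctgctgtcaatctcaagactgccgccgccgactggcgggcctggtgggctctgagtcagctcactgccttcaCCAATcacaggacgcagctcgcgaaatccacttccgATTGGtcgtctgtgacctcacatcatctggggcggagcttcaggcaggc
Insig1: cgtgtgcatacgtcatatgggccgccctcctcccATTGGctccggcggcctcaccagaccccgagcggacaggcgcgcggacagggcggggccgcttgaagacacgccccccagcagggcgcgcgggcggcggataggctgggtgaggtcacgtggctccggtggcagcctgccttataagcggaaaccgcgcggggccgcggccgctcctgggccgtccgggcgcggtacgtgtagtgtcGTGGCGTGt
Abca1: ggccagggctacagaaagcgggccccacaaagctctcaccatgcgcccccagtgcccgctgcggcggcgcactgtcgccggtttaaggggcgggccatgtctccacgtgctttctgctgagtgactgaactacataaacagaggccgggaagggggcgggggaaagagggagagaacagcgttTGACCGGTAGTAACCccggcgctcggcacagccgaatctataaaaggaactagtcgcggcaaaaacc
The windows lie at chr13:119690101-119690350 (plus strand) for Hmgcs1, chr13:8885356-8885605 (plus) for Idi1, chr5:4104698-4104947 (minus) for Cyp51, chr7:143829964-143830213 (plus) for Dhcr7, chr5:28071162-28071411 (plus) for Insig1 and chr4:53159896-53160145 (minus) for Abca1. Other annotated starts of Dhcr7 lie upstream of the one shown.

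CCAAT boxes, the site of the factor NF-Y that works beside SREBP2 on sterol genes, were found in at least 1 window of nearly all enzymes with an entry. A window was found for 24 of the 31 genes, 30 windows in all. Those without an entry were Fdps, Fdft1, Sqle, Stard4, Abcg1, Npc1 and Scarb1. CCAAT on either strand was held by 20 of the 30 (66.7%), against 33.8% of all 32851 windows of this length in the table and 35.4% of those of protein-coding genes. Counted by gene, in at least 1 window, it was held by 14 of 15 genes of synthesis, in Hmgcs1 at 3 places, against 37.5% of all genes. Dhcr7 and Pmvk each held it in only 1 of their windows. It was also held by 3 of 4 genes of sensing and transfer and 3 of 5 of uptake, export, efflux and storage. The sterol regulatory element core, also searched on both strands, was found in 3 of 30 windows (10.0%), those of Acat2, Hmgcs1 and Insig1, against 5.29% of all windows. In Hmgcs1 it lies 136 to 129 bases before the start, and in Insig1 the reverse complement lies 9 to 2 bases before it. The GC box GGGCGG, the site of Sp1, was in 24 of 30 windows (80.0%), against 32.7% of all windows and 42.6% of those of protein-coding genes. The DR4 element was found only in Abca1, 67 to 53 bases before the start (1 of 30 windows, 3.33%), against 0.192% of all windows. No match overlapped a match of another motif. A match of letters is a description of the window and says nothing of binding in these mice.

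None of the 29 genes differed between KO and WT beyond the spread of the mice. Their adjusted p was 1.0 in each case (limma, Benjamini-Hochberg over 34760 probe sets), and 0 of 29 had an unadjusted p under 0.05. Across the array 2 probe sets passed the adjusted threshold (0.00575%), and 0.838% of genes had an unadjusted p under 0.05. For 0 of 29 genes, each read by its brightest probe set, did the 3 KO values and the 3 WT values lie apart, which held for 4.61% of all genes. An exact permutation test of a single gene with 3 against 3 mice cannot give a two-sided p below 0.1. For all 29 genes the 95% interval of the KO to WT ratio held 1, with limits from 0.322 to 1.72. That count restates that no unadjusted p was under 0.05. In all 29 the mice of at least 1 genotype also spread over a wider range than the shift between genotypes. The share of all genes with such a spread was not determined, so it cannot be read as particular to these genes. Differences are given below as KO minus WT on the log2 scale with their standard error (SE), and folds as KO over WT.

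Most enzymes of synthesis had a lower mean in KO, and most genes of uptake and efflux a higher one, by amounts that did not pass the test. Of the 17 synthesis genes, 16 lay lower in KO (94.1%), with a median log2 difference of -0.27, where 49.7% of all genes lay lower and the median of all genes was 0.00085. Of the 5 genes of sensing and transfer 4 lay lower (median -0.06), and of the 7 of uptake, export and efflux 1 lay lower and 6 higher (median 0.05). The split does not hold without WT replicate 2 and KO replicate 3: then 6 of 17 synthesis genes lay lower, with a median of 0.05, and 5 of the 7 uptake and efflux genes lay lower, with a median of -0.01. Of all genes, 51.3% lay lower in that setting. Without WT replicate 2 alone, 8 of 17 synthesis genes lay lower (median 0.01). Between single arrays, KO replicate 3 lay below WT replicate 2 in 17 of 17 (median -0.59), KO replicate 2 below WT replicate 1 in 8 of 17 (median 0.01) and KO replicate 1 below WT replicate 3 in 9 of 17 (median -0.0073), where 48.1%, 48.3% and 51.5% of all genes lay lower. For 13 of the 17 the first of these follows from WT replicate 2 being the highest of all arrays. Genes of 1 pathway move together, so these counts are not counts of independent genes, and the difference between the groups of genes was not tested.

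**Figure D1:**
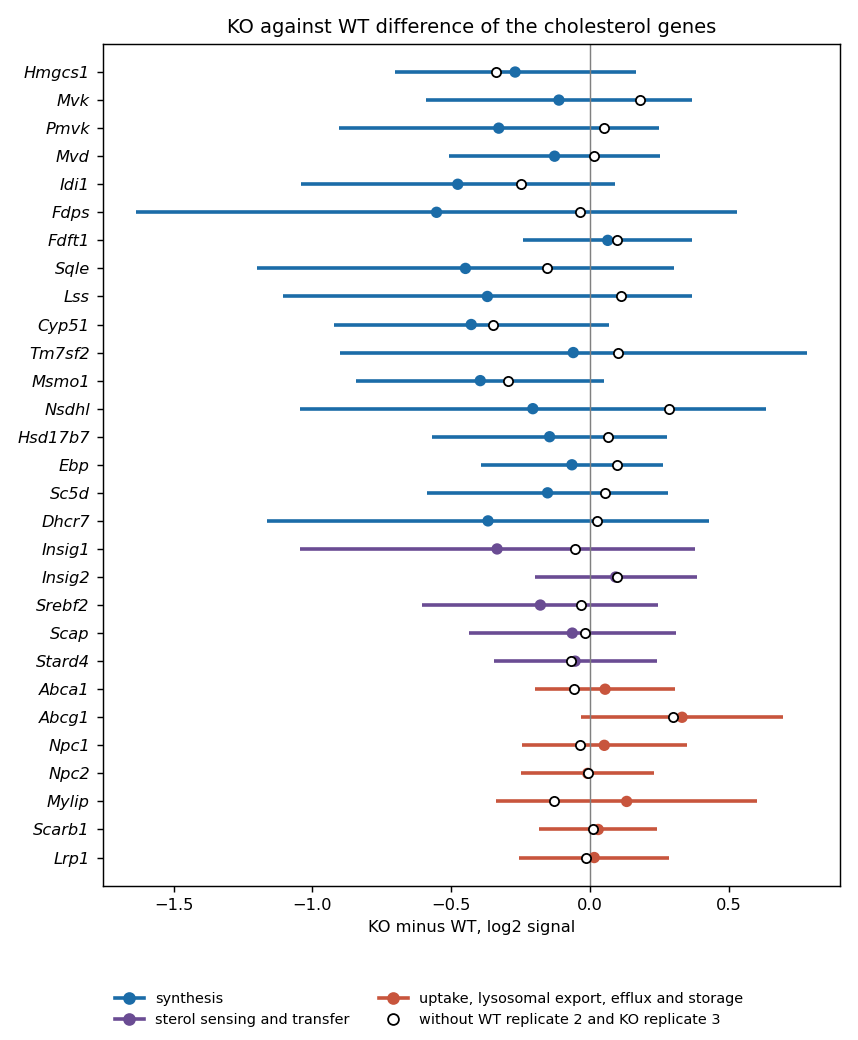
KO minus WT log2 difference of each of the 29 genes, ordered by role, with 95% intervals from limma over 3 WT and 3 KO arrays, and beside it the difference without WT replicate 2 and KO replicate 3. Every interval crosses 0, and 16 of 17 synthesis genes lie below 0 with all arrays against 6 of 17 without the pair.

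A single WT array held the highest value of most enzymes. WT replicate 2 was the highest of the 6 arrays for 13 of 17 synthesis genes (76.5%), where it was the highest for 22.1% of all genes, and WT replicate 1 was the highest for the other 4. In 9 of the 17 it lay more than 0.5 above the median of the other arrays on the log2 scale. The 17 genes had a mean log2 signal of 8.14, 8.57 and 7.90 in WT and of 7.91, 8.08 and 7.83 in KO, so that WT replicates 1 and 2 and KO replicate 2 stood above the remaining 3 arrays. In 14 of 17 the range within WT was wider than within KO.

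**Figure D2:**
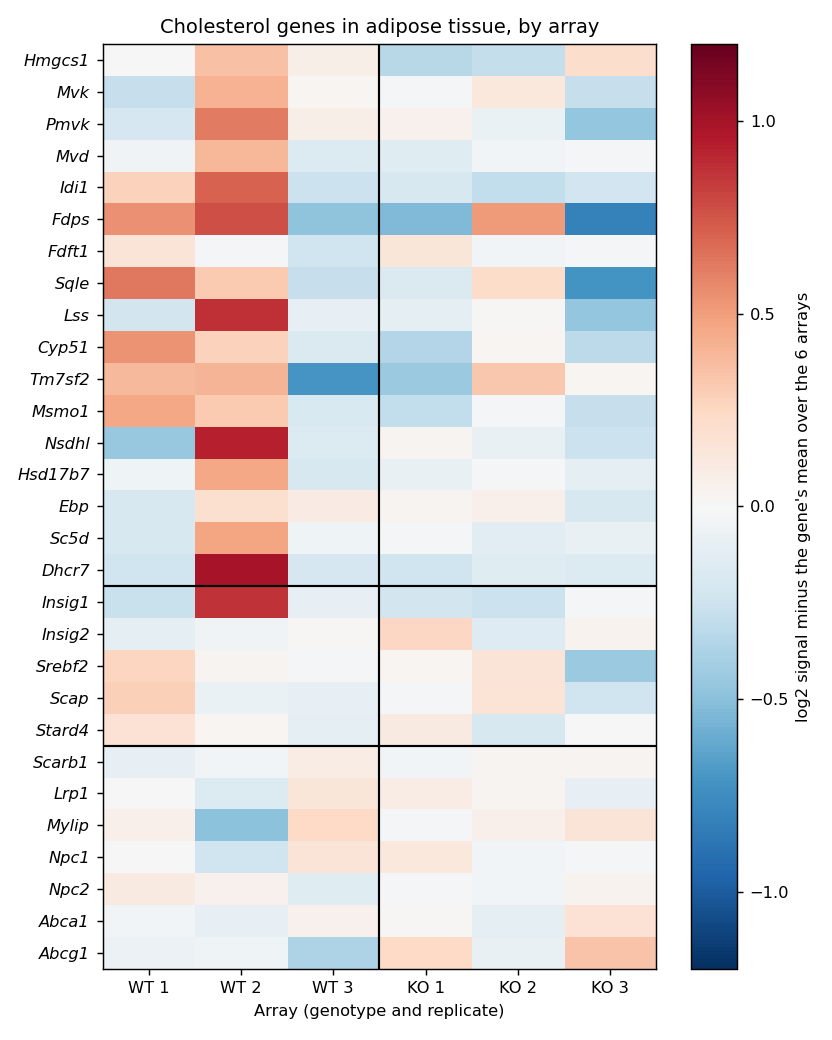
Log2 signal of the 29 genes on each of the 6 arrays as the deviation from the mean of that gene over the arrays, with genes in rows by role and arrays in columns by genotype. WT replicate 2 holds the highest value of 13 of 17 synthesis genes.

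The early steps make mevalonate and turn it into the isoprenoid unit. Hmgcs1, which makes HMG-CoA, had log2 signals of 9.62, 9.97 and 9.69 in WT and of 9.29, 9.34 and 9.84 in KO. KO replicates 1 and 2 lay below every WT array, while KO replicate 3 was second only to WT replicate 2. The difference was -0.27 (SE 0.18), or 0.829-fold (95% interval 0.614 to 1.12, unadjusted p = 0.180 by limma). With WT replicate 2 and KO replicate 3 left out it was -0.34, with an unadjusted p of 0.0243 and an adjusted p of 1.0 by limma. Mvk and Pmvk, the kinases that phosphorylate mevalonate, and Mvd, which decarboxylates the product, differed by -0.11, -0.33 and -0.13. For these 3 the highest array was WT replicate 2, and without it and KO replicate 3 the differences were 0.18, 0.05 and 0.01.

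Idi1, which interconverts the isoprenoid units, varied among the WT mice and little among the KO mice. Its log2 signals were 8.15, 8.59 and 7.62 in WT and 7.69, 7.59 and 7.65 in KO. The lowest WT value, that of replicate 3, fell among the KO values, and the other WT arrays lay above all of them. The means were 8.12 ± 0.48 and 7.64 ± 0.05 (SD, n = 3 each). The difference was -0.48 (SE 0.23), or 0.718-fold (0.486 to 1.06, unadjusted p = 0.0852 by limma), and the second probe set of the gene gave -0.34. The Idi1 difference was -0.25 when WT replicate 2 and KO replicate 3 were left out, -0.24 without WT replicate 2 alone and -0.73 without WT replicate 3. Fdps, which joins the units into farnesyl diphosphate, had a difference of -0.55 (SE 0.45), the largest in size of the 29, with an SD of 0.67 in WT and 0.70 in KO. Without WT replicate 2 and KO replicate 3 the Fdps difference was -0.04.

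From farnesyl diphosphate onward the pathway is committed to sterol. Fdft1 (squalene synthase) was the 1 synthesis gene with a higher KO mean, at 0.06 (1.04-fold, 0.846 to 1.29). Its second, dimmer probe set gave 0.19 (unadjusted p = 0.0870 by limma), with KO values of 9.87 to 9.96 above WT values of 9.61 to 9.84, so the probe sets of this gene differ in whether the groups overlap. Sqle, the epoxidase that is the second rate-setting step, had log2 signals of 7.86, 7.54 and 6.94 in WT and of 7.05, 7.44 and 6.50 in KO. WT replicate 3 lay below KO replicates 1 and 2, so the groups overlapped. The Sqle difference was -0.45 (SE 0.31), or 0.732-fold (0.435 to 1.23, unadjusted p = 0.196 by limma), and -0.16 without WT replicate 2 and KO replicate 3. Lss, which closes the sterol rings to lanosterol, read 7.20, 8.29 and 7.31 in WT and 7.30, 7.43 and 6.95 in KO. WT replicate 2 stood apart above all other arrays, and the Lss difference of -0.37 (SE 0.31) was 0.11 without that array and KO replicate 3.

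Cyp51 and Msmo1, which together strip methyl groups from lanosterol and its products, had the smallest p-values of the synthesis genes. Cyp51 had log2 signals of 7.87, 7.60 and 7.15 in WT and of 6.97, 7.35 and 7.02 in KO. Only WT replicate 3 fell among the KO values. The Cyp51 difference was -0.43 (SE 0.21), or 0.743-fold (0.527 to 1.05, unadjusted p = 0.0791 by limma). Msmo1 had log2 signals of 8.57, 8.43 and 7.93 in WT and of 7.82, 8.09 and 7.83 in KO, with the same WT array inside the KO range. The Msmo1 difference was -0.40 (SE 0.19), or 0.760-fold (0.558 to 1.04, unadjusted p = 0.0738 by limma). Both kept a lower KO mean without WT replicate 2 and KO replicate 3, at -0.35 for Cyp51 and -0.30 for Msmo1. For Cyp51, Msmo1 and Idi1, leaving out WT replicate 3, the WT array inside the KO range, necessarily sets the groups apart. Unadjusted p-values by limma were then 0.0115 for Cyp51, 0.00584 for Msmo1 and 0.00453 for Idi1, with adjusted p = 1.0 in each case. Without WT replicate 1 the unadjusted p-values were 0.222, 0.208 and 0.162 in that order, and without WT replicate 2 they were 0.165, 0.178 and 0.218.

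The remaining steps of lanosterol processing showed smaller differences that depended on the arrays used. Tm7sf2, a sterol reductase, Nsdhl and Hsd17b7, which act with Msmo1 in demethylation, Ebp, the isomerase of the sterol ring, and Sc5d, a desaturase, differed by -0.06 to -0.21, with folds of 0.959, 0.867, 0.904, 0.955 and 0.899 in that order. Each of the 5 lay higher in KO without WT replicate 2 and KO replicate 3, by 0.05 to 0.28. Dhcr7, which makes the final product, read 6.94, 8.18 and 6.99 in WT and 6.94, 7.04 and 7.02 in KO. All arrays but WT replicate 2 lay between 6.94 and 7.04. The Dhcr7 difference was -0.37 (SE 0.33), and 0.03 without that array and KO replicate 3.

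Among the genes that sense sterol, Insig1 and Srebf2 had the largest differences, both lower in KO and neither past the test. Insig1, itself a target of SREBP2, had log2 signals of 10.08, 11.21 and 10.24 in WT and of 10.12, 10.08 and 10.32 in KO. All arrays but WT replicate 2 lay between 10.08 and 10.32. The Insig1 difference was -0.34 (SE 0.29), or 0.793-fold (0.484 to 1.30, unadjusted p = 0.296 by limma), and -0.06 without WT replicate 2 and KO replicate 3. Srebf2 had log2 signals of 8.43, 8.20 and 8.14 in WT and of 8.19, 8.32 and 7.72 in KO. Its difference of -0.18 (SE 0.18), or 0.883-fold (0.658 to 1.18), was -0.03 without WT replicate 2 and KO replicate 3, the lowest array. Scap differed by -0.06, Stard4, a carrier of sterol between membranes, by -0.05, and Insig2 by 0.09.

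Abcg1, which hands cholesterol to HDL particles, had the smallest p of the 29 genes and was the gene whose KO mean was higher by the most. Its log2 signals were 7.85, 7.87 and 7.55 in WT and 8.16, 7.84 and 8.27 in KO. KO replicates 1 and 3 lay above every WT array, and KO replicate 2 lay just below the 2 higher WT arrays. The Abcg1 difference was 0.33 (SE 0.15), or 1.26-fold (0.977 to 1.62, unadjusted p = 0.0688 by limma), and it lay between 0.23 and 0.46 with 1 array left out. It was 0.30 when WT replicate 2 and KO replicate 3 were left out. Abca1, the other LXR-driven pump, which loads cholesterol onto apolipoprotein A-I, had log2 signals of 10.37, 10.29 and 10.45 in WT and of 10.41, 10.29 and 10.57 in KO. The values of both genotypes interleaved, with a difference of 0.05 (SE 0.10), or 1.04-fold (0.872 to 1.24).

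The genes of uptake and lysosomal export had differences close to 0. Scarb1, the HDL receptor, differed by 0.03 (1.02-fold, 0.881 to 1.18) and Lrp1, a receptor for remnant lipoproteins, by 0.01. Npc1 and Npc2, which hand cholesterol out of the lysosome, differed by 0.05 and -0.01. Mylip, a ubiquitin ligase that lowers lipoprotein uptake, differed by 0.13 (1.10-fold, 0.791 to 1.52). The mean log2 signal of the 7 genes was 9.72, 9.57 and 9.74 in WT and 9.78, 9.70 and 9.81 in KO, and WT replicate 2, the highest array for synthesis, was the lowest here.

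**Figure D3:**
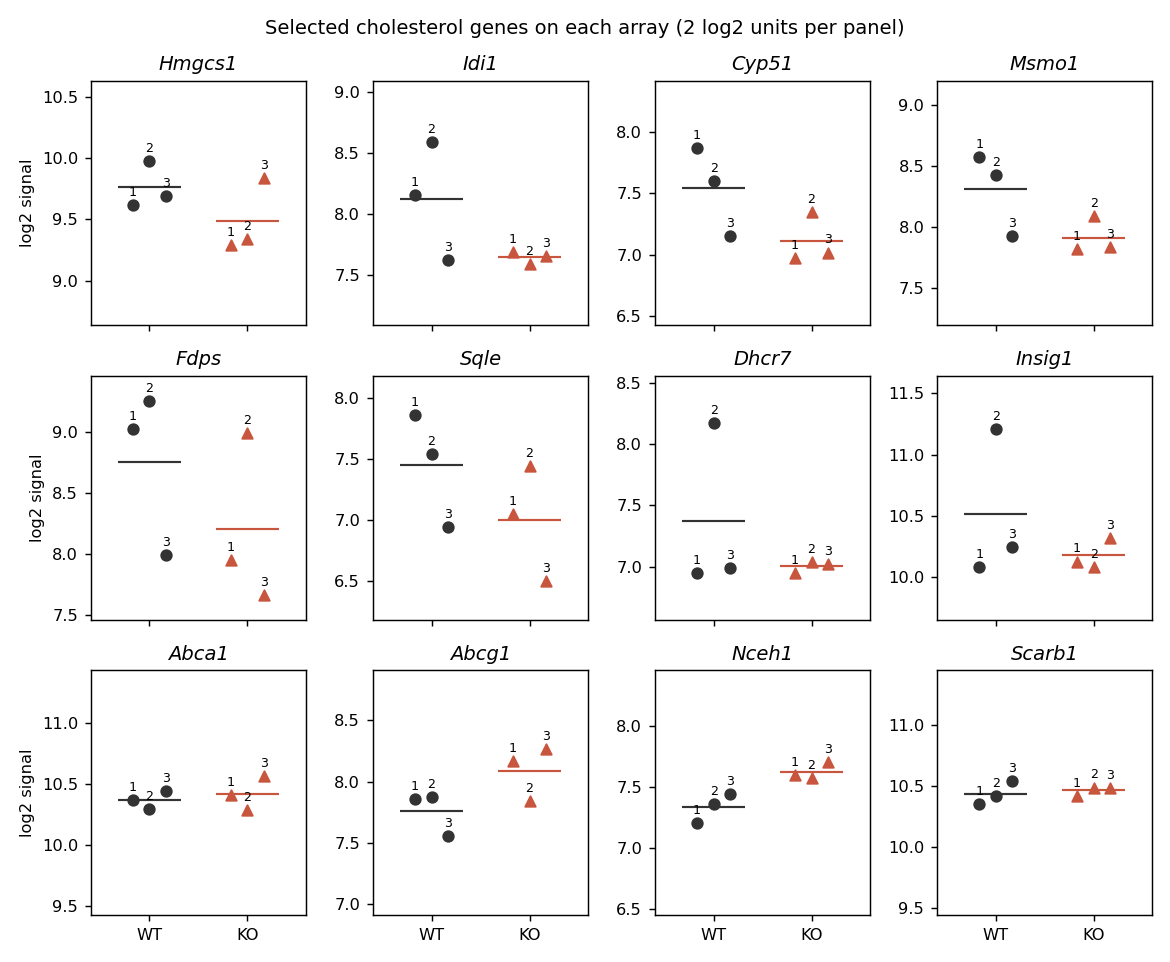
Log2 signal of selected genes of the cycle on each array, with circles for the 3 WT mice and triangles for the 3 KO mice, numbered by replicate, and lines for the means. WT and KO values overlap for every gene shown except Nceh1, a gene of the wider set described next, whose KO values of 7.58 to 7.70 lie above its WT values of 7.21 to 7.45.

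Other genes of sterol handling also showed few differences, with Nceh1 the one to reach an unadjusted p under 0.05. Of 40 further genes of sterol handling 31 were measured and the others were not analysed here. In KO 23 lay higher and 8 lower (25.8%), with a median of 0.06, where 49.7% of all genes lay lower. In the limma fit 0 of the 31 had an adjusted p under 0.05. An unadjusted p under 0.05 was reached by 1 of the 31 and by 0.838% of all genes. Nceh1, which hydrolyses cholesterol ester, read 7.21, 7.36 and 7.45 in WT and 7.60, 7.58 and 7.70 in KO. All its KO values lay above all its WT values, alone among the 31, where 4.61% of all genes had groups apart in either direction. Its difference was 0.29 (SE 0.10), or 1.22-fold (1.04 to 1.44, unadjusted p = 0.0246 and adjusted p = 1.0 by limma), and 0.26 when WT replicate 2 and KO replicate 3 were left out. The next smallest p-values belonged to Stard5, a sterol carrier, at 0.14 (1.10-fold, 0.944 to 1.29), and Gramd1a, which moves cholesterol from the plasma membrane to the endoplasmic reticulum, at 0.18 (1.13-fold, 0.911 to 1.40).

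Other lipid and cell type genes were also high on WT replicate 2, the highest array for synthesis, without passing the adjusted threshold between genotypes. The 8 lipogenic enzymes of the list (Acly, Acaca, Fasn, Elovl6, Scd1, Scd2, Me1, Pnpla3), which make fatty acid, had a mean log2 signal of 10.77, 11.87 and 10.79 in WT and of 10.92, 11.06 and 10.72 in KO. WT replicate 2 was the highest for 7 of the 8. With all arrays 8 of 8 lay lower in KO (median -0.17), where 49.7% of all genes did, with Fasn at -0.0016 and Scd1 at -0.015 close to no difference. With WT replicate 2 and KO replicate 3 left out 1 of 8 lay lower (median 0.25), where 51.3% of all genes did. The 6 urothelium markers (Upk1a, Upk1b, Upk2, Upk3a, Krt5, Krt15) were highest on WT replicate 2 in 6 of 6, at a mean of 8.30 against 5.94 and 6.67 on the other WT arrays and 5.90 to 6.58 in KO. Their median KO minus WT difference was -0.77 with all arrays and -0.12 with the same 2 arrays left out. Skeletal muscle markers (7 of 7 measured) had means of 8.94 on WT replicate 2 and 8.91 on KO replicate 3, against 5.95 to 6.91 on the others. The 6 brown adipocyte markers had means of 7.14 and 7.10 on the same 2 arrays, against 5.41 to 5.62. That gap rested on Ucp1, Cidea, Cox7a1 and Elovl3. Ppargc1a read 7.18 and 7.23 on these 2 arrays, below WT replicate 3 (7.51) and KO replicate 1 (7.60). Dio2 differed little, at 5.41 and 5.25 against at most 5.13 on the others. The part of each of these gene lists in the synthesis result was not tested.

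A second set of arrays stood apart by some epididymis markers but not by others. Of the 5 measured, Adam7 read 10.33 on WT replicate 1 and 9.19 on KO replicate 2 against 3.67 to 4.51 on the other arrays, Wfdc10 read 11.65 and 11.27 against 6.22 to 6.53, and Defb20, Rnase10 and Lcn5 read 3.29 to 5.33 on all arrays. WT replicate 1 and KO replicate 2 both lay above WT replicate 3 and KO replicate 1 for 7 of 17 synthesis genes (Mvd, Fdps, Sqle, Cyp51, Tm7sf2, Msmo1, Hsd17b7), a pattern chosen after the values were seen that held for 15.8% of all genes. Without these 2 arrays 16 of 17 synthesis genes lay lower in KO (median -0.37), where 51.0% of all genes did. Without the remaining WT replicate 3 and KO replicate 1 the count was 17 (median -0.41), where 47.7% of all genes lay lower. Both settings keep WT replicate 2, the highest array for 13 of the 17. Macrophage markers lay lower in KO for 5 of 7, at means of 8.49 to 9.05 in WT and 8.51 to 8.71 in KO. Hepatocyte markers lay higher for 7 of 7, at 5.30 to 6.28 and 5.84 to 7.29, where 49.7% of all genes lay lower. KO replicate 1 was the highest and WT replicate 3 the lowest array for all 7, and KO replicate 2 lay below WT replicate 1 for 6. Apoh (unadjusted p = 0.0323 by limma) was the 1 of the 7 under 0.05, against 0.838% of all genes. Markers of steroid-making cells lay lower for 2 of 6, at means of 4.99 to 5.82 and 4.89 to 5.70 that hide uneven genes. Among them Cyp17a1 read 8.89 and 8.11 on WT replicates 1 and 3 and 8.19 on KO replicate 2, against 4.65 to 5.54 elsewhere. Cyp11a1 read 6.22 on WT replicate 3 against 3.71 to 4.86 on the others. The part of these cells in the cholesterol genes was not tested.

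**Figure D4:**
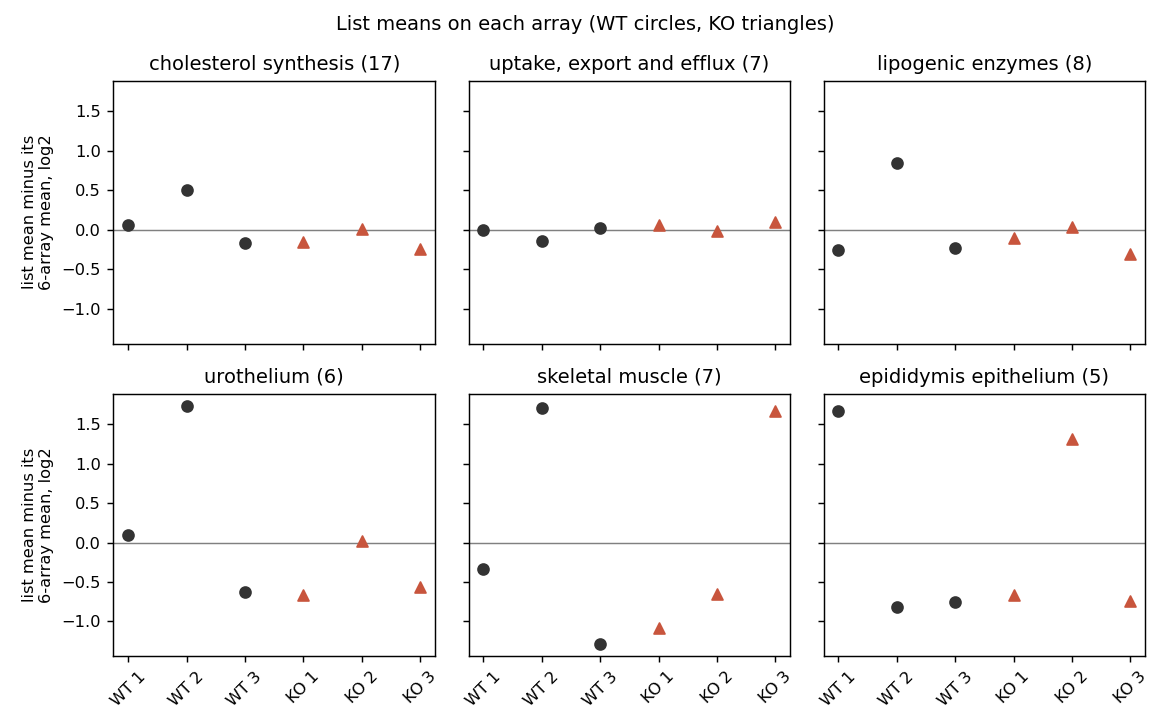
Mean log2 signal of the synthesis genes, the uptake and efflux genes and 4 marker lists on each array, drawn as the deviation from the mean of that list over the 6 arrays, with circles for WT and triangles for KO. WT replicate 2 is the highest array for synthesis (mean 8.57), lipogenic enzymes (11.87) and urothelium markers (8.30), and WT replicate 1 and KO replicate 2 are the highest for epididymis markers (7.13 and 6.77). These epididymis means rest on Adam7 and Wfdc10, as Defb20, Rnase10 and Lcn5 read 3.29 to 5.33 on all arrays.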

How the data were processed

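The authors processed the scans with GenePattern modules and deposited 1 linear intensity per probe set and array. The submitters' processing notes name RMA, which corrects background, quantile normalizes and summarises probes. Signal over background was not judged, as scanner files were not used here. The build of the array annotation was not given in the sources used here. The median intensity was 67.1 to 70.8 per array, and the number of arrays limits the precision (median SE of a difference 0.13, log2).

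On the log2 scale, limma 3.58.1 (lmFit, eBayes) in R 4.3.3 compared KO with WT with no covariate, Benjamini-Hochberg adjusted over 34760 probe sets at 0.05. Of these, 21640 have 1 symbol, 1321 several and 11799 none listed, and no gene was named from the latter. The brightest probe set stood for each of 19937 genes. Replicates are separate mice. Intervals cover 95%. The procedure was tested on simulated data.

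The members, roles and lists were chosen with earlier results of these data known. The text names all members, the 3 further cholesterol genes with the smallest p, the targeted gene, Xist, Uty and the marker genes. Gramd1b, Ch25h and Cyp27a1 were named after their values were seen. Promoter windows come from RefSeq (GRCm38.p6). Alternatives were the methods' t-test, a filter on dim probe sets, quantile normalization, linear ratios, the mean over probe sets, a replicate block, a term for or the removal of WT replicate 2 and KO replicate 3, and leaving out each array. Leaving out the other 2 pairs of arrays was added after seeing the data.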

Additional observations from a re-analysis of the deposited data

How the results depend on the processing

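The methods' t-test and the dim filter leave the difference of each of the 29 genes as it was, so they could not turn a direction. Quantile normalization (a step that RMA already makes), linear ratios and the mean over probe sets turned the direction of none of the 29 genes. The mean over probe sets can alter only Idi1 and Fdft1. Past the adjusted p were 2 probe sets with all arrays, 0 with the methods' t-test, 0 without any of the 3 pairs of arrays, and 1 to 2 with 1 array left out. With the replicate number as a block 0 probe sets passed, and Fdps (unadjusted p = 0.0467, adjusted p = 1.0, limma) was the 1 gene of the 29 with an unadjusted p under 0.05. Deviations of same-numbered arrays from their genotype means correlated at -0.15, -0.37 and -0.09, and no array correlated best with the array of its own number in the other genotype. Deviations of the 3 arrays of a genotype sum to 0, so a strong match of 1 pair pulls other correlations down. Whether arrays of the same number shared a batch was not tested. The best matches were WT replicate 1 with KO replicate 2 (0.52), WT replicate 2 with KO replicate 3 (0.48) and WT replicate 3 with KO replicate 1 (0.37), which are the pairs left out below. Against 0 of 29 with all arrays, that count was also 1 with a term for WT replicate 2 and KO replicate 3 (Hmgcs1, unadjusted p = 0.0262) or without them (Hmgcs1), 1 without WT replicate 1 and KO replicate 2 (Abcg1, unadjusted p = 0.0276), 3 without WT replicate 3 and KO replicate 1 (Idi1, Cyp51, Msmo1), and 0 to 3 with 1 array left out (the 3 without WT replicate 3, Abcg1 without KO replicate 2, Hmgcs1 without KO replicate 3), all with an adjusted p of 1.0 by limma. Synthesis genes lower in KO numbered 6 without WT replicate 2 and KO replicate 3 and 8 to 17 with 1 array left out, and their median difference was 0.048 without that pair, -0.59 in KO replicate 3 minus WT replicate 2 alone, and 0.014 (without WT replicate 2) to -0.38 (without WT replicate 3) with 1 array left out. The cause was not tested. The share of all genes with an unadjusted p under 0.05 was determined only for the limma fit with all arrays and no covariate. The counts of the 29 genes in the other settings therefore have no share of all genes to be read against.

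Without WT replicate 2 and KO replicate 3 the log2 difference turned to 0.18 for Mvk, 0.048 for Pmvk, 0.015 for Mvd, 0.11 for Lss, 0.10 for Tm7sf2, 0.28 for Nsdhl, 0.065 for Hsd17b7, 0.096 for Ebp, 0.052 for Sc5d, 0.025 for Dhcr7, -0.058 for Abca1, -0.036 for Npc1, -0.13 for Mylip and -0.015 for Lrp1. Without WT replicate 1 and KO replicate 2 it turned to 0.10 for Stard4, 0.058 for Npc2 and -0.025 for Scarb1, and without WT replicate 3 and KO replicate 1 to -0.099 for Fdft1. With 1 array left out, 10 of the 29 genes kept their direction in every case (Hmgcs1, Pmvk, Idi1, Fdps, Sqle, Lss, Cyp51, Msmo1, Srebf2, Abcg1), as did Nceh1 (0.22 to 0.34, unadjusted p 0.0250 to 0.0685). The other 19 spanned 0: Mvk -0.28 to 0.069, Mvd -0.24 to 0.039, Fdft1 -0.041 to 0.16, Tm7sf2 -0.43 to 0.15, Nsdhl -0.49 to 0.21, Hsd17b7 -0.28 to 0.048, Ebp -0.18 to 0.016, Sc5d -0.29 to 0.047, Dhcr7 -0.58 to 0.036, Insig1 -0.55 to 0.014, Insig2 -0.0082 to 0.19, Scap -0.16 to 0.060, Stard4 -0.13 to 0.027, Abca1 -0.020 to 0.12, Npc1 -0.054 to 0.14, Npc2 -0.086 to 0.044, Mylip -0.084 to 0.28, Scarb1 -0.013 to 0.080 and Lrp1 -0.066 to 0.092.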

Other observations

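Within the wider set of cholesterol genes the spread between mice was uneven. Gramd1b, which like Gramd1a carries cholesterol away from the plasma membrane, had log2 signals of 9.0, 7.15 and 8.48 in WT and of 8.18, 8.90 and 7.58 in KO, with WT replicate 2 and KO replicate 3 the lowest of their genotypes. Ch25h, which makes 25-hydroxycholesterol, read 6.61 on WT replicate 1 and 5.76 on KO replicate 2 against 4.79 to 5.02 on the other arrays. Cyp27a1, the mitochondrial sterol hydroxylase, read 8.85, 8.39 and 9.31 in WT and 9.32, 9.20 and 8.98 in KO, with a difference of 0.32 (SE 0.24). These 3 genes were chosen after their values were seen.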
